A study of Mus musculus with 21 samples.

Results

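Gene expression in quadriceps muscle was compared between trained and untrained mice 72 h after the same kind of acute exercise, a treadmill bout to exhaustion. The comparison holds 6 of the 21 libraries of the series, 3 trained and 3 untrained, and 11755 of 53738 gene symbols, those with a mean abundance of at least 1 TPM (transcript abundance corrected for length and scaled to one total) over these 6 libraries. All mice were C57/Bl6 wild-type males. Trained mice had access to a running wheel for 12 weeks before the bout. Untrained mice had no training before the bout, and sedentary mice (3 libraries) did not exercise. Libraries of trained and untrained mice at 6 h after the bout served as a further reference. RNA came from whole muscle, so a lower level of a gene could come from fewer cells of a type or from less RNA per cell, and these cannot be told apart. The labels number the replicates without saying that each was a separate animal, so the spread between libraries may in part be technical. The SE and p value of each gene's difference rest on an error pooled within groups over all 19 libraries of the fit. That error is therefore not the spread of the 6 compared libraries alone. The hour of the day at which the mice were sacrificed is not given in the sources used here, and its part in the levels of clock genes was not tested.

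Skeletal muscle responds to contraction with waves of transcription that fade over hours to days, and endurance training changes both the resting state and the response to a further bout. Muscle also holds a circadian clock, in which ARNTL and CLOCK activate genes through E-boxes and the products of these genes, among them the period and cryptochrome proteins, repress ARNTL and CLOCK in turn. A separate group of muscle proteins sits at the Z-disc and in the I-band, where the load on the sarcomere is sensed, and the genes of several of them are known to respond to stretch and load.

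The 10 myofibre markers, such as the genes of titin, nebulin and fast troponins, were all detected and together held 92931 ± 2501 TPM in trained and 101154 ± 2804 TPM in untrained muscle (mean ± SD, n = 3 each here and throughout). The authors deposited TPM values, which carry no read depth, so no counting error can be given. Total TPM lay between 997647 and 997921 in these libraries, and Pearson's r between libraries lay between 0.919 and 0.936, with overlapping ranges within and between groups. Genes of the mitochondrial genome took 47.4 ± 0.689% of the TPM in trained and 43.3 ± 1.02% in untrained muscle (two-sided exact permutation test p = 0.1, the smallest that 3 against 3 libraries allow). Because TPM sum to a fixed total, this share moves with the level of all other genes. The median log2 fold change of all tested genes was -0.08, and 69.9% of genes had a negative value. After median-of-ratios scaling the median was 9.1e-06, and after rescaling to nuclear protein-coding genes it was 0.03. The part of this shift in the small differences below was not tested, and values under other scalings are given where they matter.

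Trained and untrained muscle differed in 43 genes at 72 h post-exercise, 13 higher and 30 lower in trained muscle. Calls required an adjusted p below 0.05 (limma on log2(TPM + 0.5), Benjamini-Hochberg over the 11755 genes) together with a 1.5-fold difference on that scale, and amounted to 0.366% of genes tested, 0.111% higher and 0.255% lower. In each of the 43 genes the 3 trained libraries lay all above or all below the 3 untrained ones. Of all genes tested, 3.99% had all trained libraries above the untrained and 24.7% had all below. At an unadjusted p below 0.05, 267 genes (2.27%) were higher and 1690 genes (14.4%) were lower in trained muscle. The split of the calls depended on scaling, with 14 higher and 15 lower after median-of-ratios scaling, 15 and 12 without the mitochondrial genome and the 10 most abundant genes, and 25 and 18 on protein-coding nuclear genes alone. The number of calls also rested on single libraries. Without trained replicate 2 there were 4, without untrained replicate 2 there were 10, without untrained replicate 3 there were 19, without trained replicate 3 there were 20 and without untrained replicate 1 there were 22. All 43 genes kept their sign in every alternative fit in which they were tested. Since their groups do not overlap, leaving 1 library out could not have turned a sign, so those fits add no support.

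Genes of the circadian clock made up 6 of the 13 genes higher in trained muscle. The clock repressors Ciart, Per1 and Per2, and the clock outputs Usp2, Hlf and Tspan4, were higher in trained muscle, and the activator Arntl was lower. Ciart, a repressor of ARNTL and CLOCK (chromosome 3, 95785815 to 95789991, GRCm39), had 3.55, 6.14 and 9.45 TPM in the trained and 1.28, 1.13 and 0.720 TPM in the untrained libraries. Per1, a period protein gene (chromosome 11, 68986035 to 69002300), had 6.07, 9.28 and 9.06 TPM against 2.98, 1.61 and 1.65 TPM. Per2, its paralog (chromosome 1, 91343700 to 91387069), had 1.83, 2.67 and 2.14 TPM against 0.640, 0.572 and 1.04 TPM. Even the lowest trained library exceeded the highest untrained library in each of these genes. Mean TPM was 6.11-fold higher in trained muscle for Ciart (log2 fold change 2.08, SE 0.29, adjusted p = 0.00755 by limma), 3.91-fold for Per1 (1.76, SE 0.26, adjusted p = 0.0098) and 2.95-fold for Per2 (1.12, SE 0.19, adjusted p = 0.0162). The log2 values are on the log2(TPM + 0.5) scale, which understates the change of low genes such as Per2.

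Windows from the starts of Ciart, Per1 and Tspan4 are shown because the E-box CACGTG, the site through which ARNTL and CLOCK act, was found in them. The windows are the 250 bases before a RefSeq transcript start in GRCm38.p6 on the gene's strand, written 5′ to 3′ with E-boxes in capitals. They are chr3:95882229-95882478 on the minus strand for Ciart, with E-boxes at positions -116, -58 and -44 from the start, chr11:69098699-69098948 on the plus strand for Per1, with an E-box at -166, and chr7:141476130-141476379 on the plus strand for Tspan4, with an E-box at -51.
Ciart: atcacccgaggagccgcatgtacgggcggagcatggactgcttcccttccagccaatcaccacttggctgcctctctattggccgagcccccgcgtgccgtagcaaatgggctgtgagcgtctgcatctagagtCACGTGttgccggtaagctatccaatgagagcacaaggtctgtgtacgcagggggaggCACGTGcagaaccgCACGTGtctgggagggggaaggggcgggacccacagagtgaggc
Per1: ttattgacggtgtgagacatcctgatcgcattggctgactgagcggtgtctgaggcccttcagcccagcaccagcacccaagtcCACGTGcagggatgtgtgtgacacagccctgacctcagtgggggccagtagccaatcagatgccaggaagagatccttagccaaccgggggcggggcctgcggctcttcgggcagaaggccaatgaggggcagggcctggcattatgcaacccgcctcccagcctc
Tspan4: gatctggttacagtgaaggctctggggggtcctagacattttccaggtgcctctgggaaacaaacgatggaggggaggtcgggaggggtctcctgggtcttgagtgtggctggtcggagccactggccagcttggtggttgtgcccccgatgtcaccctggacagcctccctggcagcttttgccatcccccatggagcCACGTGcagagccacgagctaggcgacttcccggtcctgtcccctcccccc
CACGTG was searched on both strands, where it reads alike, and was in 6.02% of all 32851 windows and in a window of 10.3% of the 8169 tested genes with one. Of the called genes with a window, 3 of 11 higher genes (Ciart, Per1 and Tspan4) and 2 of 22 lower genes (Pim1 and Tceal7) held it. Neither window of Arntl held it, nor did the windows of Usp2 and Hlf. Per1 and Tspan4 each had another window, not shown, without it. The D-box TTANGTAA, the site of the DBP, HLF and TEF factors, was in 2.06% of windows, and among called genes only in that of Cd68. The letters AGGTCA, to which REV-ERB factors bind, were in 14% of windows, in that of Per1 among the higher and that of Prkag2 among the lower genes. A match shows that these letters are present and no more.

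Among the clock outputs, Usp2, a deubiquitinase gene driven by the clock in many tissues (chromosome 9, 43978264 to 44006924), had 45.8, 55.3 and 62.9 TPM in trained and 21.5, 21.6 and 19.4 TPM in untrained muscle. Hlf, a PAR bZIP transcription factor gene (chromosome 11, 90227221 to 90281761), had 2.37, 3.38 and 2.97 TPM against 1.59, 1.49 and 1.27 TPM. Tspan4, a tetraspanin gene (chromosome 7, 141055138 to 141073340), had 6.83, 9.59 and 8.26 TPM against 5.10, 5.04 and 3.64 TPM. The groups did not overlap in any of the 3 genes. The log2 fold change was 1.36 for Usp2 (SE 0.17, adjusted p = 0.00379, limma), 0.80 for Hlf (SE 0.11, adjusted p = 0.00935) and 0.78 for Tspan4 (SE 0.15, adjusted p = 0.0347). Arntl, the gene of the activator BMAL1 (chromosome 7, 112806152 to 112914735), moved the other way, with 3.13, 1.86 and 1.89 TPM in trained and 6.41, 7.07 and 8.59 TPM in untrained muscle. Its mean was 3.21-fold higher in untrained muscle (log2 fold change -1.51, SE 0.21, adjusted p = 0.00755). The Usp2 call held with any 1 library left out. Without trained replicate 2 the calls of Ciart (adjusted p = 0.0575), Hlf (0.0629) and Arntl (0.0629) were lost. The Per1 call was lost without trained replicate 2 (0.0635) or untrained replicate 2 (0.0752), and the Per2 call without untrained replicate 1 (0.0565), untrained replicate 2 (0.0906) or trained replicate 2 (0.106). The Tspan4 call held only without trained replicate 1, with an adjusted p between 0.0565 and 0.152 without any other library. Levels of Hlf and Tspan4 are uncertain, because each overlaps a gene on the opposite strand and the kit does not mark strand. Hlf shares 16035 bases with Mmd (3.20 TPM in trained and 3.86 TPM in untrained muscle), and Tspan4 shares 810 bases with Polr2l (6.63 and 7.22 TPM).

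**Figure D1:**
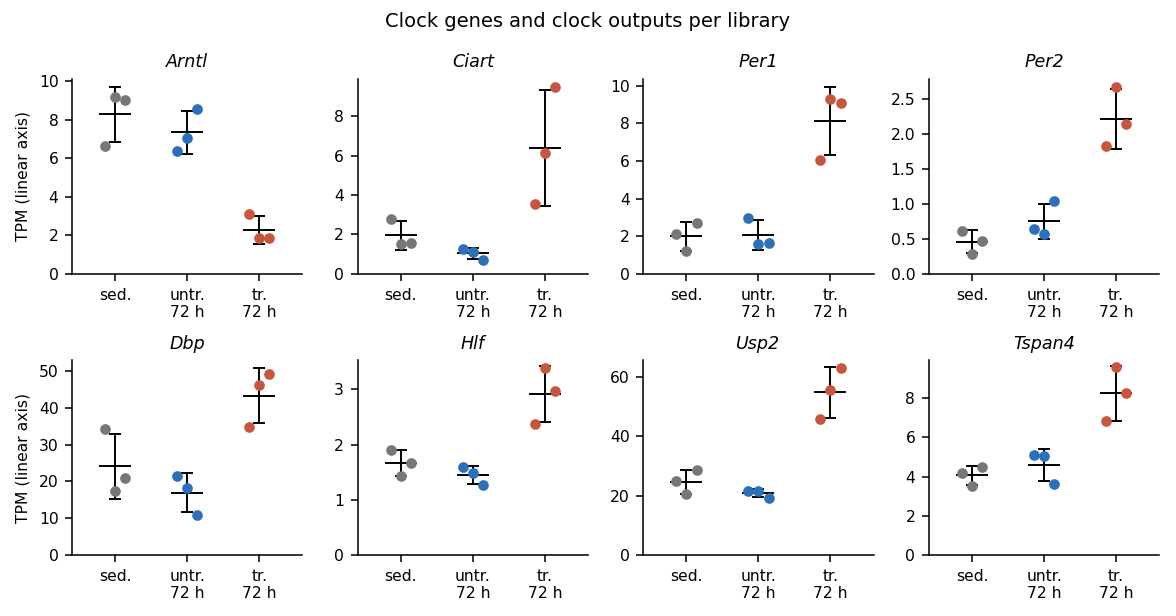
TPM (linear axis) of clock genes in each sedentary, untrained 72 h and trained 72 h library, with the mean and SD of each group. For Ciart, Per1 and Usp2 the trained libraries lie above all untrained ones, and for Arntl they lie below.

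The remaining members of the clock lists are given by their values. Of 12 repressors 3 were called higher (0.111% of all genes), 6 were higher (2.27%) and 1 lower (14.4%) at an unadjusted p below 0.05, and the list median was 0.33 against -0.08 for all genes. Of 12 outputs 3 were called higher, 4 were higher and 1 lower at that level, and the median was 0.23. Of 5 activators 1 was called lower (0.255% of all genes), and 2 were lower and 0 higher at that level. Dbp, the archetypal PAR bZIP output, narrowly missed the threshold with 34.7, 46.1 and 49.0 TPM in trained and 21.4, 18.3 and 11.1 TPM in untrained muscle (log2 fold change 1.36, SE 0.32, adjusted p = 0.0555). Nr1d2, the gene of the repressor REV-ERBβ, passed the p threshold with a difference below the fold threshold (0.53, SE 0.12, adjusted p = 0.0439). Its paralog Nr1d1 had 33.9 ± 2.86 against 49.8 ± 3.20 TPM, opposite in sign to Nr1d2 (-0.55, SE 0.15, adjusted p = 0.106). Per3 (0.86, adjusted p = 0.0769), Cry2 (0.46, adjusted p = 0.137), the D-box repressor Nfil3 (-0.76, adjusted p = 0.198) and Clock (-0.33, adjusted p = 0.281) missed the threshold. Their groups did not overlap. For Per3 and Cry2 all trained libraries lay above the untrained, as in 3.99% of all genes. For Nfil3 and Clock they lay below, as in 24.7% of all genes. Log2 fold changes of Rorb (0.40), Rora (0.23), Bhlhe41 (0.20), Bhlhe40 (0.16), Csnk1d (0.14), Tef (0.27), Pfkfb3 (0.46), Sik1 (0.18), Tsc22d3 (0.15), Nampt (0.09) and Rbm20 (0.01) had adjusted p values of 0.398 or more. Cipc (-0.02) and Csnk1e (0.00 to 2 decimals) turned positive under the 3 other scalings. Cry1 could not be read, since untrained replicate 1 held 39.6 TPM and the other two 3.19 and 3.80 TPM, and the trained libraries ranged from 2.54 to 15 TPM. Without untrained replicate 1 its log2 fold change was 0.95 in place of -0.16.

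Of the load-sensing genes of the Z-disc and I-band, Csrp3, Ankrd2, Fhl1 and Ankrd23 were lower in trained muscle at 72 h. Of 24 tested members of this list these 4 were called lower, against 0.255% of all genes. At an unadjusted p below 0.05, 17 were lower, against 14.4% of all genes, and 18 had all trained libraries below the untrained, against 24.7%. The list median was -0.48 against -0.08 for all genes, and -0.39, -0.35 and -0.34 under the 3 other scalings. Csrp3, the gene of muscle LIM protein, a Z-disc partner of telethonin (chromosome 7, 48480142 to 48497901), had 15.3, 9.40 and 15.1 TPM in trained and 99.1, 119 and 87.4 TPM in untrained muscle. No trained library came near an untrained one. The mean was 7.66-fold higher in untrained muscle, with a log2 fold change of -2.91 (SE 0.50, adjusted p = 0.0166, limma). Ankrd2, which encodes an ankyrin repeat protein of the I-band known to rise with stretch (chromosome 19, 42024274 to 42033552), had 17.1, 16.6 and 19.5 TPM against 44.2, 54.4 and 45.7 TPM. Fhl1, the gene of a LIM protein that binds titin (chromosome X, 55777147 to 55838706), had 143, 133 and 138 TPM against 311, 368 and 295 TPM. Ankrd23, a further muscle ankyrin repeat gene (chromosome 1, 36563865 to 36575964), had 416, 371 and 375 TPM against 562, 639 and 548 TPM, and is uncertain because it shares 6691 bases with Gm42417 on the same strand, which had 809 and 1015 TPM (log2 fold change -0.33, adjusted p = 0.327). Trained levels were thus below untrained levels in every library of these genes, with log2 fold changes of -1.41 for Ankrd2 (SE 0.26, adjusted p = 0.0256), -1.22 for Fhl1 (SE 0.26, adjusted p = 0.0429) and -0.59 for Ankrd23 (SE 0.12, adjusted p = 0.0361). The calls of Ankrd2, Fhl1 and Ankrd23 were each lost with any 1 of the 6 libraries left out (adjusted p up to 0.127, 0.192 and 0.17). The Csrp3 call was lost without each untrained library (0.0565, 0.0906 and 0.0553 for replicates 1, 2 and 3) or trained replicate 2 (0.106).

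The other members of the load-sensing list had the same sign in all but 2 cases. Pdlim3, a Z-disc PDZ and LIM protein gene, had 139 ± 5.26 against 197 ± 18.1 TPM and passed the p threshold with a log2 fold change of -0.50 (adjusted p = 0.048), below the fold threshold. The small heat shock protein genes Hspb7 (-1.02, adjusted p = 0.075), Hspb1 (-0.74, 0.137) and Cryab (-0.69, 0.107) had negative values that missed the threshold, as had the Z-disc genes Xirp1 (-1.0, 0.218), Myoz2 (-0.70, 0.161), Actn2 (-0.61, 0.101), Flnc (-0.46, 0.203), Cavin4 (-0.44, 0.163), Xirp2 (-0.37, 0.0598), Myot (-0.25, 0.0607) and Ldb3 (-0.25, 0.0605). Ankrd1, the third muscle ankyrin repeat gene, had 1.77, 2.48 and 1.43 TPM in trained and 3.75, 5.62 and 3.65 TPM in untrained muscle. All its trained libraries lay below the untrained, as in 24.7% of all genes. Its wide error left it short of the threshold (log2 fold change -1.02, SE 0.53, adjusted p = 0.36). Nrap (-0.21), Des (-0.19), Smpx (-0.14), Bag3 (-0.08) and Myoz1 (-0.01) had adjusted p values of 0.299 or more, and Bag3 and Myoz1 turned positive under the 3 other scalings. Tcap (0.30, adjusted p = 0.419) and Fhl3 (0.11, adjusted p = 0.566) had positive values.

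**Figure D2:**
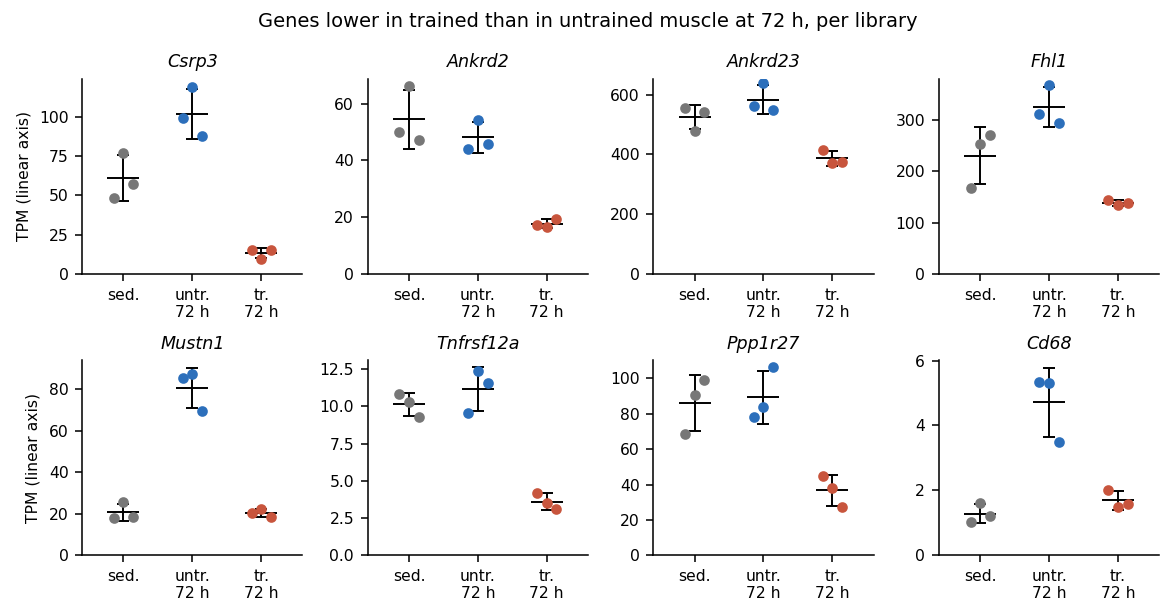
TPM (linear axis from 0) of 8 genes in each sedentary, untrained 72 h and trained 72 h library, with the mean and SD of each group. The trained libraries lie below all untrained ones in each gene, while the sedentary libraries sit with the untrained group for Ankrd2, Tnfrsf12a and Ppp1r27 and with the trained group for Mustn1 and Cd68.

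Several further muscle genes were lower in trained muscle. Tnfrsf12a, the gene of the TWEAK receptor Fn14, which is induced in injured and denervated muscle (chromosome 17, 23894416 to 23896468), had 4.21, 3.52 and 3.09 TPM in trained and 9.56, 12.4 and 11.6 TPM in untrained muscle. Mustn1, a small nuclear protein gene of the musculoskeletal system (chromosome 14, 30601157 to 30603567), had 20.3, 22.5 and 18.4 TPM against 85.2, 87.1 and 69.6 TPM. Ppp1r27, which encodes a regulatory subunit of protein phosphatase 1 (chromosome 11, 120440788 to 120446249), had 44.9, 37.8 and 27.5 TPM against 78.0, 83.6 and 106 TPM. In each of these genes the groups were well separated. The log2 fold change was -1.51 for Tnfrsf12a (SE 0.18, adjusted p = 0.00379, limma), -1.95 for Mustn1 (SE 0.39, adjusted p = 0.0357) and -1.28 for Ppp1r27 (adjusted p = 0.0162). Only the Tnfrsf12a call of these 3 held with any 1 library left out. The Mustn1 call was lost with each (adjusted p between 0.0847 and 0.148), and the Ppp1r27 call without untrained replicate 2 (0.0863), untrained replicate 3 (0.0738), trained replicate 2 (0.0847) or trained replicate 3 (0.0656). Tnfrsf12a overlaps Hcfc1r1 on the opposite strand over 2053 bases, the kit does not mark strand, and Hcfc1r1 itself had a log2 fold change of -0.31 (adjusted p = 0.0377).

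The other calls lower in trained muscle were 1 gene without a match in the annotation, Smim4, and protein-coding genes of many functions. Dnajc12, a co-chaperone gene, had 2.13, 2.30 and 2.29 TPM in trained and 7.84, 7.40 and 7.36 TPM in untrained muscle (log2 fold change -1.55, SE 0.34, adjusted p = 0.0446). Its sedentary libraries varied widely, at 4.16 ± 2.81 TPM. Tuba4a, an abundant α-tubulin gene of muscle, had 379, 349 and 426 TPM against 595, 637 and 564 TPM (-0.64, SE 0.08, adjusted p = 0.00379). Prkag2, the gene of a regulatory γ subunit of the energy sensor AMPK, had 3.59, 3.05 and 4.07 TPM against 6.35, 8.83 and 5.75 TPM (-0.86, SE 0.15, adjusted p = 0.02). These separations held in every library. Pim1, a serine/threonine kinase gene, had 8.90, 6.28 and 4.62 TPM against 13.0, 12.6 and 11.7 TPM (-0.91, SE 0.19, adjusted p = 0.0377). Klhl30, a kelch-like family gene, had 15.2, 15.5 and 13.8 TPM against 21.3, 26.1 and 25.5 TPM (-0.69, SE 0.11, adjusted p = 0.0139). The remaining calls were Gm13889 (-1.28), Tceal7 (-0.97), Ypel2 (-0.87), the ubiquitin ligase gene Rnf122 (-0.73), Zmym1 (-0.71), Arhgap20 (-0.68), Smim4 (-0.61) and Relt, of the TNF receptor family (-0.60). Of the genes in this paragraph only Gm13889 held its call with any 1 library left out. Without trained replicate 2 none of the others did, with adjusted p between 0.0629 (Klhl30) and 0.16 (Dnajc12), except Tuba4a, whose adjusted p stayed at 0.0333 while its fold change passed under the threshold. Without untrained replicate 2 all of these but Gm13889 and Tuba4a lost theirs (0.0863 to 0.178), and Dnajc12, Zmym1, Smim4 and Relt did so with each of the 6 libraries. Levels of genes that share bases with another gene are uncertain. Gm13889 does so with Alkbh3 on the same strand, and Tceal7 with Bex1, Pim1 with Gm26885 (8.66 and 8.45 TPM), Tuba4a with Stk16 and Zmym1 with Gm12940 (21.1 and 18.8 TPM) on the opposite strand.

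Also lower in trained muscle were 4 long non-coding transcripts and 1 small nucleolar RNA, most of them inside or across other genes. Hectd2os, antisense to Hectd2, had 3.07, 3.89 and 3.55 TPM in trained and 7.32, 10.8 and 7.36 TPM in untrained muscle (log2 fold change -1.15, SE 0.16, adjusted p = 0.00935), and held its call with any 1 library left out. Gm43063 (-1.10, adjusted p = 0.0377) lies within Ampd1, the muscle AMP deaminase gene, which itself had -0.44 (adjusted p = 0.0347). 9430073C21Rik (-0.64, adjusted p = 0.0139) lies antisense to the myosin genes Myh2 and Myh1. Without strand information, reads of these transcripts and of the genes they overlap cannot be told apart. Rian (-0.67, adjusted p = 0.0461) is an imprinted long non-coding RNA. Snord100, a small nucleolar RNA in an intron of Rps12, was listed at 0 in the 3 trained and the 3 sedentary libraries and at 5.26, 7.47 and 6.62 TPM in the untrained ones. No fold change is given for it. The calls of Gm43063, Rian and Snord100 were lost with each of the 6 libraries left out (adjusted p up to 0.178, 0.204 and 0.117), and that of 9430073C21Rik without trained replicate 2 (0.0629) or untrained replicate 2 (0.0863).

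Some genes of the extracellular matrix were lower in trained muscle. Of 32 tested collagen and matrix remodelling genes 3 were called lower (0.255% of all genes), Col5a3, Fbn1 and Mmp14. At an unadjusted p below 0.05, 20 were lower and 1 higher (14.4% and 2.27% of all genes). All trained libraries lay below the untrained in 23 (24.7% of all genes). The list median was -0.47 against -0.08 for all genes, and between -0.42 and -0.39 under the 3 other scalings. Col5a3, a fibrillar collagen chain gene, had 3.31, 1.86 and 1.73 TPM in trained and 4.53, 5.33 and 5.54 TPM in untrained muscle. Fbn1, the gene of the microfibril protein fibrillin, had 3.18, 2.19 and 2.09 TPM against 5.05, 5.47 and 5.32 TPM. Mmp14, the gene of a membrane-bound matrix protease, had 3.47, 2.67 and 2.6 TPM against 4.85, 4.62 and 4.62 TPM. Trained replicate 1 was the highest of its group in all 3 genes and still lay below every untrained library. The log2 fold change was -1.05 for Col5a3 (SE 0.18, adjusted p = 0.0198, limma), -0.97 for Fbn1 (SE 0.19, adjusted p = 0.0308) and -0.61 for Mmp14 (SE 0.12, adjusted p = 0.0377). The calls of Fbn1 and Mmp14 held only without trained replicate 1 (adjusted p = 0.0299 for both, otherwise up to 0.134 and 0.152). That of Col5a3 was lost without untrained replicate 2 (0.0972), untrained replicate 3 (0.0812), trained replicate 2 (0.117) or trained replicate 3 (0.0793). Timp3, an inhibitor of matrix proteases, was the exception in sign (24.5 ± 1.26 against 19.5 ± 1.08 TPM, 0.33, adjusted p = 0.0555), with Col12a1 (0.06). The summed level of the list was 304 ± 46.5 TPM in trained, 416 ± 21.3 TPM in untrained and 329 TPM in sedentary muscle. Without trained replicate 3 the 20 genes became 10. Summed markers of fibro-adipogenic and tendon cells, the main source of matrix, were 603 ± 45.1 and 614 ± 48.8 TPM, with overlapping libraries (exact permutation p = 0.7), and 0 of their 15 tested genes were called. Of these, 11 had negative values (median -0.15, and -0.06 to -0.01 under the 3 other scalings), 2 were lower at an unadjusted p below 0.05 and 6 had all trained libraries below the untrained.

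Cd68, a lysosomal protein gene that marks macrophages, was lower in trained muscle. It had 2.01, 1.49 and 1.57 TPM in trained and 5.34, 5.30 and 3.49 TPM in untrained muscle (chromosome 11, 69555037 to 69557067). The groups did not overlap, and the log2 fold change was -1.24 (SE 0.20, adjusted p = 0.0162, limma). Cd68 was the only 1 of 17 tested macrophage markers called (0.255% of all genes were called lower). It was also the only 1 at an unadjusted p below 0.05 (14.4% of all genes were lower at that level). In a fit to the 6 libraries alone 10 of the 17 reached that level. Over the list 13 markers had all trained libraries below the untrained, against 24.7% of all genes, and the median was -0.27 against -0.08, and -0.20 to -0.18 under the 3 other scalings. The lysozyme gene Lyz2 was at 21.7 ± 1.16 and 28.7 ± 1.82 TPM (-0.39, adjusted p = 0.379), Folr2 at -0.44 (0.328), Tyrobp at -0.43 (0.333), Ctss at -0.37 (0.439), Fcgr3 at -0.27 (0.366) and Mrc1, the mannose receptor gene of resident macrophages, at -0.27 (0.561). The complement genes C1qa, C1qb and C1qc were each at -0.28, Fcer1g at -0.26, Laptm5, Cd163 and Lyve1 at -0.21, Csf1r at -0.18 and Gpnmb at 0.00. Lgals3 rested on untrained replicate 1, with 13.2 TPM against 2.06 and 1.48 TPM in the other two (-0.27, and 0.60 without it). The summed level of 27 markers was 70.9 to 79.6 TPM in trained, 93.1 to 110 TPM in untrained and 67.9 ± 3.45 TPM in sedentary libraries (trained against untrained, exact permutation p = 0.1, the smallest possible), with no marker at 0 in all 6 libraries. The part of cell numbers in the Cd68 difference was not tested. Its call was lost without untrained replicate 1 (0.0565), untrained replicate 2 (0.0906), trained replicate 2 (0.0968) or trained replicate 3 (0.0564). Neutrophil markers summed to 2.56 ± 0.778 and 3.58 ± 0.636 TPM (exact permutation p = 0.3) and lymphocyte markers to 1.67 ± 0.267 and 1.98 ± 0.0449 TPM (p = 0.1).

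**Figure D3:**
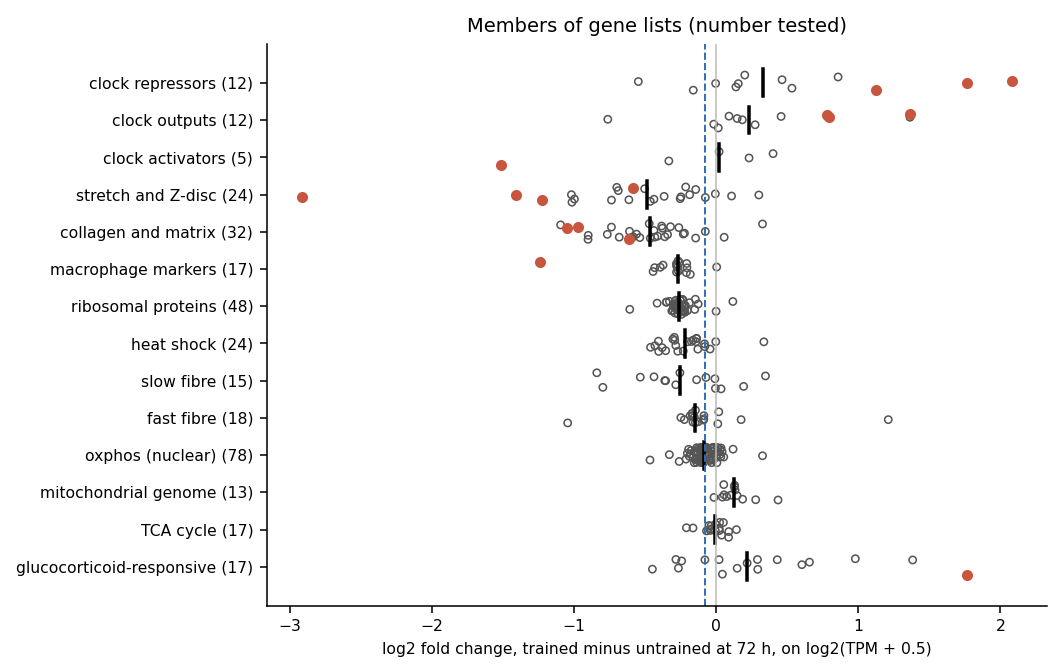
Log2 fold change (trained minus untrained at 72 h, on log2(TPM + 0.5)) of each tested gene of the gene lists, with filled points for called genes, open points for the others, a black bar for the list median and a dashed line for the median of all genes (-0.08). Load-sensing and matrix genes lie mostly left of the dashed line, and called clock genes lie on both sides.

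Contractile genes of fast and slow fibres gave no call. Of 18 genes on the fast fibre list, which also holds calcium-handling genes, 8 were lower and 1, Sln, higher at an unadjusted p below 0.05. Of all genes, 14.4% were lower and 2.27% higher at that level. Under the 3 other scalings 2 of the list were lower and 1 to 3 higher. The list median was -0.15, and between -0.06 and -0.02 under those scalings. Of 15 slow fibre genes 4 were lower at that level (2 under those scalings), with a median of -0.26, and -0.17 to -0.02. Myh2, the myosin gene of fast oxidative fibres, had 99.0, 141 and 109 TPM in trained and 239, 293 and 192 TPM in untrained muscle and missed the threshold (log2 fold change -1.05, SE 0.25, adjusted p = 0.0636). Sln, which encodes the calcium pump inhibitor sarcolipin, had 5.25, 2.68 and 2.47 TPM against 1.14 ± 0.071 TPM (1.21, SE 0.33, adjusted p = 0.101). Of the other fast myosins, Myh1 was at 0.18 (adjusted p = 0.488). Myh4 lay near the median of all genes at -0.09 (adjusted p = 0.811) and turned positive under the 3 other scalings. Fast troponin, tropomyosin and related genes had small negative values, with -0.25 for Tpm1, -0.18 for Tnnc2, -0.15 for Tnni2 and Tnnt3, -0.22 for Pgam2, -0.17 for Casq1 and Actn3, -0.16 for Mylpf, -0.15 for Mybpc2 and -0.13 for Myoz3, all with an adjusted p of 0.108 or more. Myl1 and Pvalb (both -0.09) turned positive under the other scalings, and Atp2a1 (0.02) and Ryr1 (0.01) were level. Among slow fibre genes Myl3 (-0.84, adjusted p = 0.142) and Casq2 (-0.80, adjusted p = 0.141) had the lowest p, followed by Fabp3 (-0.44), Myl6b (-0.36) and Mybpc1 (-0.26). Tnni1 (-0.53), Myl2 (-0.36), Tnnc1 (-0.28), Tpm3 (-0.14), Cox6a1 (-0.07), Myh7 (-0.01), Tnnt1 (-0.01), Ckmt2 (0.03), Mb (0.19) and Atp2a2 (0.35) had adjusted p values of 0.581 or more, with overlapping groups except for Atp2a2. Cox6a1, Myh7 and Tnnt1 turned positive under the other scalings.

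Most cytosolic ribosomal protein genes had small negative values. Of 48 genes 40 were lower and 0 higher at an unadjusted p below 0.05 (26 to 29 lower under the 3 other scalings), 42 had all trained libraries below the untrained, against 14.4% and 24.7% of all genes, and 0 were called. The median was -0.26, and -0.17 to -0.14 under the other scalings. Rps3 had 93.9 ± 1.57 TPM in trained and 113 ± 2.23 TPM in untrained muscle (log2 fold change -0.27, SE 0.05, adjusted p = 0.0261), and Rpl24 had 191 ± 5.57 and 232 ± 7.06 TPM (-0.28, SE 0.06, adjusted p = 0.0382), while Rps16 alone had a positive value (0.12, adjusted p = 0.912). Of 24 heat shock and co-chaperone genes 10 were lower at that level (5 or 6 under the other scalings), with a median of -0.22, led by Hspb2 (-0.38, adjusted p = 0.0807) and Cacybp (-0.40, adjusted p = 0.0823). The inducible Dnajb1 was at 1.29 TPM in trained and 1.30 TPM in untrained muscle.

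The lists of energy metabolism genes held no call at 72 h, and the AMPK subunit gene Prkag2, called lower above, was in none of them. Of all genes, 14.4% were lower and 2.27% higher at an unadjusted p below 0.05. The direction of the 78 nuclear genes of the respiratory chain turned with scaling, from 16 lower and 0 higher at an unadjusted p below 0.05 and a median of -0.09 to 0 lower and a median of 0.00 after median-of-ratios scaling, and to 7 or 8 higher under the other two scalings. The 13 protein-coding genes of the mitochondrial genome had a median of 0.13, with 6 higher at that level, among them mt-Co1 (0.13, adjusted p = 0.125) and mt-Nd4 (0.10, adjusted p = 0.154), while mt-Nd1 was at -0.02. The tricarboxylic acid cycle list (17 genes, 0 at an unadjusted p below 0.05, but 5 or 6 higher under the 3 other scalings) had a median of -0.005 and the list of fat uptake and oxidation (27 genes, 2 higher and 1 lower) one of 0.02. Ucp3, the gene of a mitochondrial uncoupling protein, was at 33.8 ± 6.34 and 18.4 ± 9.73 TPM, with overlapping libraries (0.96, adjusted p = 0.234). Of 15 glycolytic genes 3 were lower (median -0.12, near 0 under the other scalings), with Ldha at -0.31 (adjusted p = 0.101) and Ldhb at 0.36 (adjusted p = 0.347). In the glucose and glycogen list (20 genes, 2 lower) Ppp1r3c, a glycogen-targeting phosphatase subunit gene, had 34.3 ± 8.20 against 78.9 ± 18.4 TPM (-1.19, SE 0.29, adjusted p = 0.0636). Of 16 genes around the coactivator PGC-1 only Perm1 was below an unadjusted p of 0.05 (-0.30, adjusted p = 0.0821).

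Other lists held calls only where noted. Of 17 glucocorticoid-responsive genes Per1 was called higher (0.111% of all genes). At an unadjusted p below 0.05, 4 were higher (2.27% of all genes) and 2 lower (14.4%), and the median was 0.22. Arrdc2, an arrestin domain gene of this list, had 8.71 ± 1.81 TPM in trained and 3.14 ± 1.26 TPM in untrained muscle (log2 fold change 1.38, SE 0.31) and lay just outside the threshold (adjusted p = 0.0506), as did Cys1 (0.75, adjusted p = 0.0506), while Relt and Rian lay just inside it (both 0.0461). In the angiogenesis list (13 genes, 1 higher and 4 lower) Aplnr, the apelin receptor gene, passed the p threshold below the fold threshold (-0.57, adjusted p = 0.0429), and Vegfa was at -0.30 (adjusted p = 0.12). In the immediate early list (16 genes, 3 higher and 0 lower) Cebpb (0.59, adjusted p = 0.172) and Ier3 (0.56, adjusted p = 0.121) led. The lists of atrophy and FOXO genes (22 genes, 1 higher and 2 lower, led by Fst at -0.67 and adjusted p = 0.101), interferon and antigen presentation (18 genes, 0 of either), regeneration (13 genes, 1 lower) and cold-inducible RNA-binding proteins (5 genes, 1 lower) held no call. The same was true of markers of endothelial cells (20 genes, 1 higher and 4 lower), smooth muscle and pericytes (11 genes, 1 lower), satellite cells (6 genes, 2 lower), adipocytes (10 genes, 1 higher), red blood cells (6 genes, 1 lower) and nerve (5 genes, 1 lower). Summed endothelial markers were 413 ± 25.3 and 425 ± 40.4 TPM (exact permutation p = 0.7), and red cell markers 481 ± 22.5 and 600 ± 215 TPM, the latter raised by untrained replicate 1 at 846 TPM.

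Beside the clock genes, 7 genes were called higher in trained muscle. Dusp7, a phosphatase gene that dampens ERK signalling (chromosome 9, 106245143 to 106252923), had 9.52, 8.99 and 6.73 TPM in trained and 3.86, 2.6 and 4.18 TPM in untrained muscle (log2 fold change 1.15, SE 0.20, adjusted p = 0.0207, limma). Cep85l, a centrosomal protein gene (chromosome 10, 53149539 to 53256043), had 5.22, 6.32 and 7.04 TPM against 2.80, 2.43 and 2.35 TPM (1.14, SE 0.19, adjusted p = 0.0162). Fzd4, a Wnt and norrin receptor gene of vessels, had 8.81, 9.90 and 9.24 TPM against 6.17, 4.55 and 4.47 TPM (0.83, SE 0.18, adjusted p = 0.0429). Trained and untrained libraries were apart in each of these. Crybb1 (0.95, adjusted p = 0.0404), the alcohol dehydrogenase gene Adh1 (0.75, 0.031), the xanthine dehydrogenase gene Xdh (0.66, 0.044) and Rab22a, an endosomal GTPase gene (0.64, 0.0256), completed the set. Rab22a had 9.33, 9.23 and 9.67 TPM against 6.05, 5.78 and 5.76 TPM. It shares 119 bases with Mir6340 on the opposite strand (219 TPM in trained and 252 TPM in untrained muscle), so its level is uncertain. Each of these 7 calls was lost without trained replicate 2 (adjusted p between 0.092 for Cep85l and 0.177 for Xdh) or untrained replicate 2 (between 0.0906 for Cep85l and 0.204 for Xdh), and those of Fzd4, Crybb1 and Rab22a with each of the other libraries too.

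Levels were also set beside those of sedentary muscle. The comparisons of trained and untrained muscle with sedentary muscle share the 3 sedentary libraries, and the genes were chosen by the trained and untrained levels, so the following is a description. On the log2(TPM + 0.5) scale the sedentary mean was nearer to the untrained than to the trained mean in 24 of the 30 lower genes. The same held in 12 of the 13 higher genes, with Rab22a (8.81 ± 0.655 TPM in sedentary muscle) the exception. The share of all tested genes with this arrangement was not computed. For Per1 the sedentary level was 2.01 ± 0.773 TPM, and the log2 fold change against it was 1.81 in trained (adjusted p = 0.00933) and 0.05 in untrained muscle (adjusted p = 0.99). For Arntl the sedentary level was 8.28 ± 1.44 TPM, with -1.67 in trained (adjusted p = 0.00915) and -0.16 in untrained muscle (adjusted p = 0.931). Tnfrsf12a was at 10.1 ± 0.759 TPM, with -1.38 (adjusted p = 0.00933) and 0.13 (adjusted p = 0.941), and Ankrd2 at 54.5 ± 10.3 TPM, with -1.58 (adjusted p = 0.0289) and -0.17 (adjusted p = 0.952). In these genes it was the trained group that stood apart from sedentary muscle. Cd68 and Mustn1 showed the other arrangement. Cd68 was at 1.29 ± 0.288 TPM in sedentary muscle, with 0.30 in trained (adjusted p = 0.596) and 1.53 in untrained muscle (adjusted p = 0.038), and Mustn1 was at 20.7 ± 4.19 TPM, with -0.01 (adjusted p = 0.999) and 1.95 (adjusted p = 0.316). Csrp3 lay between, at 60.9 ± 14.7 TPM, with -2.16 (adjusted p = 0.0717) and 0.75 (adjusted p = 0.872), and so did Fhl1 at 230 ± 54.9 TPM, with -0.71 (adjusted p = 0.264) and 0.52 (adjusted p = 0.823).

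**Figure D4:**
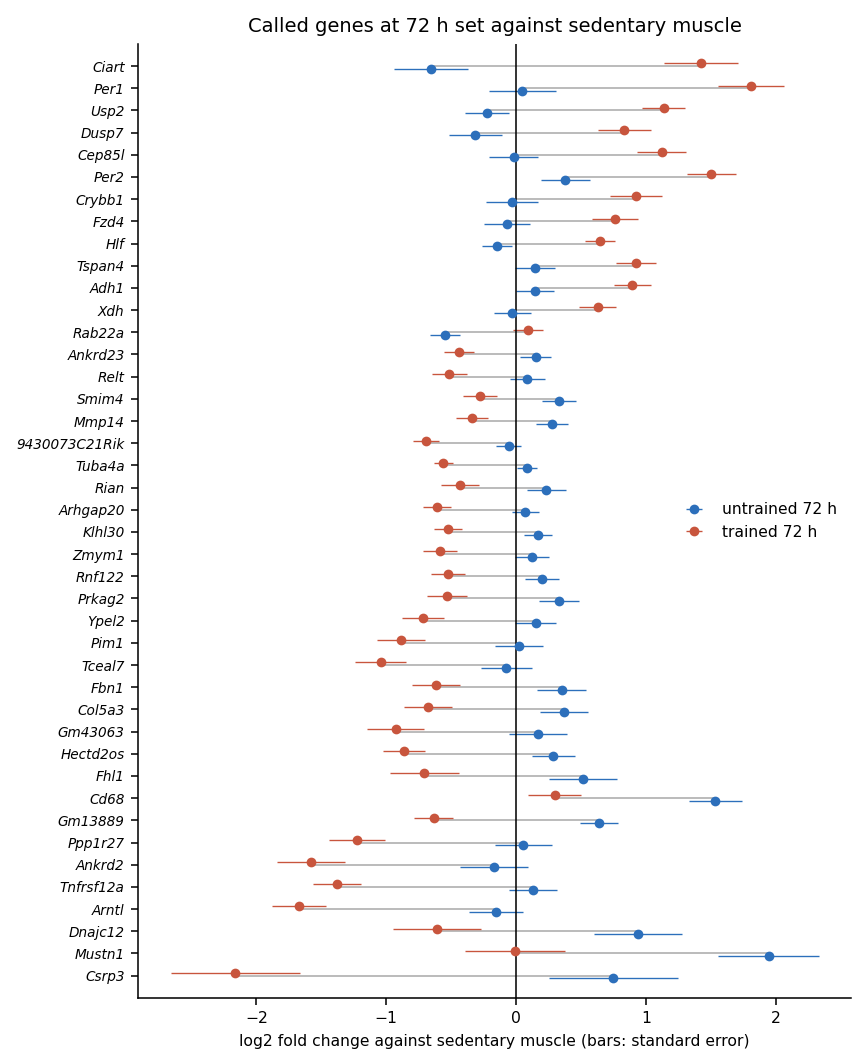
Log2 fold change against sedentary muscle (log2(TPM + 0.5), points with SE) in trained and untrained muscle at 72 h for called genes, without Snord100, which is listed at 0 in trained and sedentary libraries. For Per1 and Arntl the untrained point lies near 0 (0.05 and -0.16) and the trained point away from it, whereas for Cd68 and Mustn1 the trained point lies near 0 (0.30 and -0.01).

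The training difference at 72 h was set beside that at 6 h post-exercise, which comes from other libraries. Of the 43 genes called at 72 h, 32 had the same sign at 6 h, 25 of the 30 lower and 7 of the 13 higher genes. The share of all tested genes with the same sign at both times was not computed. Since 69.9% of all genes had a negative value at 72 h, these counts are a description only. A test of the difference between both time points called 66 genes (0.561% of genes tested). Csrp3, Ankrd2 and Tnfrsf12a were already lower in trained muscle at 6 h (adjusted p = 0.00784, 0.00416 and 0.000232), when their levels in untrained muscle were higher than at 72 h. Csrp3 was at 100 ± 87.0 TPM in trained and 469 ± 59.4 TPM in untrained muscle at 6 h (log2 fold change -2.65), Ankrd2 at 70.3 and 199 TPM (-1.56) and Tnfrsf12a at 31.7 and 98.8 TPM (-1.66). For Csrp3 the difference between time points was -0.26 (adjusted p = 0.942), and a p of this size does not show that the differences were alike. The clock genes Ciart, Per1, Per2, Hlf, Tspan4 and Arntl had the opposite sign at 6 h, although none of these 6 h differences passed the threshold (adjusted p between 0.304 and 0.744). At 6 h Per1 was at 4.51 ± 0.591 TPM in trained and 6.34 ± 1.26 TPM in untrained muscle, and the training difference was 2.20 higher at 72 h than at 6 h (adjusted p = 0.0139, limma). The corresponding values were 2.44 for Ciart (adjusted p = 0.0139), 1.37 for Per2 (0.0303), 0.98 for Hlf (0.0139), 1.08 for Tspan4 (0.0341) and -1.67 for Arntl (0.0197), and all of these passed the threshold. For Usp2 the value was 0.98 and missed it (adjusted p = 0.0796), with an SE of 0.24 against 0.16 for Hlf. Usp2 was at 47.2 TPM in trained and 36.4 TPM in untrained muscle at 6 h. Ypel2 turned from 0.31 at 6 h to -0.87 at 72 h (-1.17, adjusted p = 0.0298). Calls of this test numbered 32 without untrained replicate 2 or trained replicate 3, 34 without trained replicate 2, 40 without untrained replicate 1 and 41 without untrained replicate 3.

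**Figure D5:**
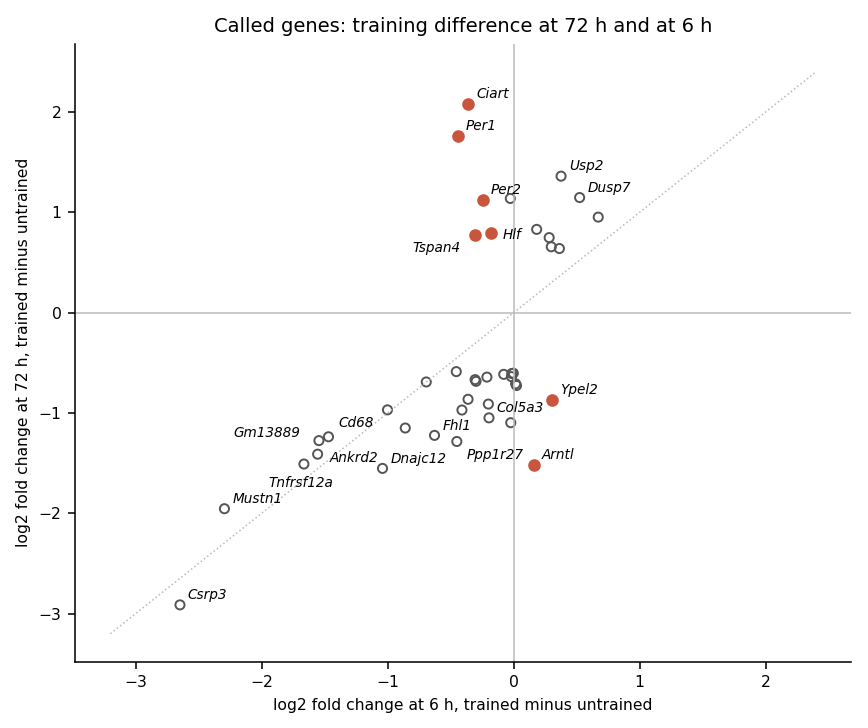
Log2 fold change of trained against untrained muscle at 72 h (vertical axis) and at 6 h (horizontal axis) for the genes called at 72 h, without Snord100, with filled points where the difference between time points was called and a dotted line of equal values. Csrp3, Mustn1 and Ankrd2 lie near the dotted line, and Ciart, Per1, Per2, Hlf and Tspan4 lie above 0 at 72 h and below 0 at 6 h.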

How the data were processed

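The authors aligned paired-end reads (TruSeq RNA v2 kit, which does not mark strand) to GRCm39 with STAR and quantified them with Salmon 1.5.0, and deposited TPM per gene symbol. The release of the gene annotation is not given in the sources used here. The deposited TPM were analysed as log2(TPM + 0.5). The libraries labelled untrained 0 h replicate 1 and trained 0 h replicate 1 held identical values, and both were left out, so the model of 7 group means was fitted to 19 libraries (limma 3.58.1 in R 4.3.3, variance trend, 12 residual degrees of freedom). P values were adjusted over 11755 genes (Benjamini-Hochberg). The difference between 72 h and 6 h was a contrast of the same model. Summed levels were compared by exact permutation (two-sided). The fit was tested on simulated data.

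Members and gene lists were chosen with earlier results of these data known. Named genes are the called genes, all members of the clock, load-sensing, fibre and macrophage lists, for other lists the called members and the 2 of smallest p in each direction, the extremes of the 72 h and 6 h difference, and the genes next to the threshold. A few items these rules select are not reported here. Gene positions came from a GRCm39 annotation, in which 11589 of 11755 tested symbols matched, and promoter windows from RefSeq (GRCm38.p6), with a window for 8169 tested genes.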

Additional observations from a re-analysis of the deposited data

Results flagged for a closer look

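The training difference (log2, trained minus untrained) was tested between 72 h and 6 h post-exercise, and 15 of the 219 genes considered here passed the threshold, 10 with a larger value at 72 h. The difference of differences was 2.44 for Ciart, 2.20 for Per1, 1.37 for Per2, 1.08 for Tspan4, 0.98 for Hlf, -1.67 for Arntl and -1.17 for Ypel2, whose levels are given above. For Snord100 the fitted value was -6.23, but it was listed at 0 in all trained libraries at 72 h and all untrained libraries at 6 h, so this value depends on the pseudocount.

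The other 7 genes were not called at 72 h, and the size of their difference was larger at 6 h. Otud1, a deubiquitinase gene, had a value of 3.71, with 3.71 ± 3.17 TPM in trained and 52.1 ± 31.3 TPM in untrained muscle at 6 h against 2.56 and 2.59 TPM at 72 h. Dnajb1, an inducible co-chaperone gene, had 3.34, with 1.19 ± 0.189 and 16.8 ± 3.07 TPM at 6 h (adjusted p = 0.000385 by limma). The levels of both genes at 72 h were low in both groups. The Rab GTPase-activating protein gene Tbc1d1 (1.53) and the filamin gene Flnc (1.19) were also lower in trained muscle at 6 h, with 8.59 against 20.3 TPM and 86.9 against 266 TPM. Timp3 (0.81) was at 22.8 against 32.2 TPM at 6 h and at 24.5 against 19.5 TPM at 72 h. G0s2, an inhibitor of lipolysis (-2.05), and the phosphatase gene Dusp18 (-1.59) were higher in trained muscle at 6 h, with 19.9 against 7.54 TPM and 6.38 against 1.71 TPM. At 72 h G0s2 had the opposite sign, at 5.13 ± 1.43 against 8.86 ± 3.43 TPM with overlapping libraries (log2 fold change -0.70, adjusted p = 0.191, limma).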

How the results depend on the processing

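The 43 called genes at 72 h became 24 without a filter on expression, 27 after rescaling without the mitochondrial genome and the 10 most abundant genes, 155 with sample quality weights (which weighted trained replicate 2 most, at 1.93) and 136 when no minimum fold was asked. With 1 library left out they numbered 4 to 41. Counts were 29 after median-of-ratios scaling, with all 21 libraries as deposited and with only the 6 libraries compared, of which 26, 29 and 11 were among the 43, and between 36 and 47 with other pseudocounts, filters, protein-coding nuclear genes and robust estimation. The 66 genes called in the difference between 72 h and 6 h became 29 at a mean of at least 5 TPM, 39 with only the groups compared and 102 with sample quality weights, and 32 to 65 with 1 library left out. The causes were not tested. The number of genes tested also differed, with 32338 without a filter and 14543 without the mitochondrial genome and the 10 most abundant genes, against 11755. Deviations from the group means correlated at -0.051, 0.072 and -0.009 between same-numbered trained and untrained libraries. Between libraries of different number the values lay between -0.070 and 0.077. With 3 libraries per group these values cannot show whether the numbers pair the libraries. With the replicate block 34 genes were called at 72 h and 46 in the difference between time points. TPM carry no depth, which limits what can be said of genes near 1 TPM such as Per2 and Cd68.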
